A study of Arabidopsis thaliana with 8 samples.

Results

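On this Agilent Arabidopsis array, 1645 of 43603 non-control probes (3.77%) carry no transcript accession. The members were chosen as the probes whose systematic name, the field that holds an accession for the other probes, only repeats the array maker's own name beginning with A_84_. The deposited files give these probes no gene, coordinates or sequence, so each is called here by its name alone. Of the remaining probes, 35617 name a RefSeq mRNA, 481 a RefSeq noncoding RNA and 5860 an EST, a cDNA or an assembled transcript.

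HDA6 is a histone deacetylase that removes acetyl groups from histone tails, and in Arabidopsis it is known for keeping transgenes, transposable elements and part of the ribosomal RNA genes transcriptionally silent, together with DNA methylation. ROS1 is a DNA glycosylase that takes methylcytosine out of DNA, and its loss lets methylation and silencing spread to some loci. Probes with no annotated transcript are one place where RNA from normally silent or unannotated sequence can appear on an array.

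The RNA came from 12-day-old seedlings of 4 genotypes with 2 arrays each: ros1 hda6-10, ros1 hda6-9, ros1 and the wild type C24. All lines share the C24 background and, per the study, the RD29A-LUC transgene, with the 35S-NPTII transgene on the same T-DNA. Both hda6 alleles are in the ros1-1 mutant, so each is set against ros1, and ros1 against C24. hda6-10 has a small deletion in the first exon and hda6-9 a T-DNA inserted just before the stop codon, and each allele is a single recovered mutant. Plates of full MS medium held 3% sucrose, the day was 16 h long at 21 °C, and seedlings were harvested after 1 day in the cold (4 °C). Below, hda6-10 and hda6-9 stand for the double mutants with ros1. The study's methods describe biological replicates, more per sample than the arrays analysed here. The labels number the arrays of a genotype 1 and 2 without saying which cultures they came from, so p-values measure only the spread between these arrays, which may in part be technical.

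Levels are log2 of the processed signal minus the 75th percentile of the same array, so 0 is the 75th percentile. A probe is detected when the scanner software flagged it as well above background. Between 77.2% and 80.6% of non-control spots per array were well above background, and of 153 negative control spots 0 to 9 per array carried that flag. HDA6 itself, by probe A_84_P12211, read -1.76 and -1.78 in hda6-10, 0.90 and 0.84 in hda6-9, -0.17 and -0.20 in ros1, and -0.31 and -0.24 in C24, so its transcript was low in the arrays labelled hda6-10 and not in those labelled hda6-9. ROS1 was detected on all 8 arrays, which does not check the ros1 label. Leaf marker genes were detected on all 8 arrays for 5 of 5 genes and cold-induced genes for 4 of 5, whereas GolS3, the fifth, was detected on 1 array. Some seed storage transcripts stood apart on 2 arrays. CRA1, a storage globulin, read -7.26 in hda6-9 array 2 and -6.62 in C24 array 2, against -1.70 to -0.28 on the other 6. CRU3 was also lowest on these 2 arrays, at -5.20 and -7.58. SESA2 was lowest on C24 array 2 (-7.97) but read -5.92 on hda6-9 array 2, above both ros1 arrays (-7.18 and -6.10). OLEO1, by probe A_84_P12895, was lowest on the same 2 arrays as CRA1. It read -7.65 on C24 array 2 and -5.21 on hda6-9 array 2, the latter near -5.00 on hda6-10 array 1. Root marker genes were detected on all 8 arrays for 2 of 3 genes, and all 3 were lowest on hda6-9 array 1. SHV2, a root hair gene, read -4.28 and -4.31 in hda6-10, -6.40 and -5.05 in hda6-9, -3.67 and -3.53 in ros1, and -3.59 and -5.24 in C24, and the hda6 arrays were below both ros1 arrays. EXPA7, an expansin of root hairs, read -5.36 and -5.35 in hda6-10, -8.62 and -5.67 in hda6-9, -4.05 and -5.18 in ros1, and -5.02 and -6.65 in C24. The part of the seed and root transcripts in the results was not tested, and counts without the 2 arrays low in CRA1 and CRU3 are given below.

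The probes without an accession were mostly dark. Well above background were 587 and 591 of them in hda6-10, 566 and 517 in hda6-9, 508 and 557 in ros1, and 581 and 561 in C24. The lowest number was in ros1 array 1 and the highest in hda6-10 array 2. Both hda6-10 arrays lay above all other arrays, and hda6-9 overlapped with ros1 and with C24. As shares these numbers ran from 30.9% to 35.9% of the 1645 probes, against 83.0% to 85.6% of RefSeq mRNA probes on the same arrays. Over all arrays, 851 members (51.7%) were detected on none, 407 (24.7%) on all 8 and 387 (23.5%) on 1 to 7. For the other 41958 probes, 13.4% were detected on none and 76.2% on all 8. In whole seedlings, fewer cells that make an RNA and less RNA per cell cannot be told apart.

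**Figure D1:**
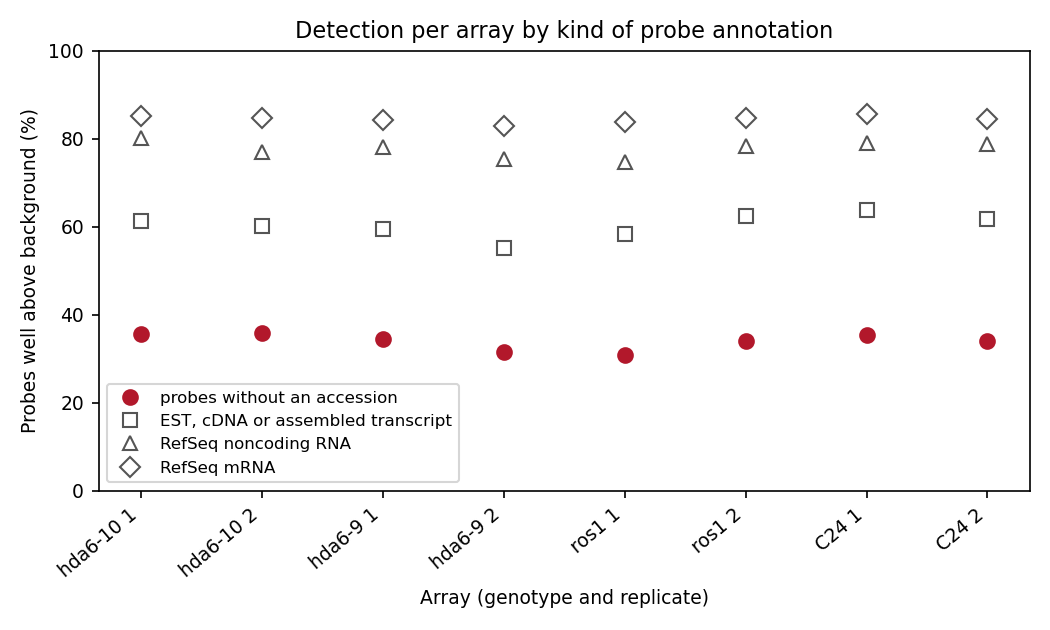
Share of probes well above background (%) on each of the 8 arrays, by the kind of annotation the probe carries; each point is 1 array and kind. The probes without an accession (red) lie between 30.9% and 35.9% on every array, and RefSeq mRNA probes between 83.0% and 85.6%.

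Detected on both arrays of the genotype were 547 members in hda6-10, 494 in hda6-9, 478 in ros1 and 531 in C24. Only probes that were detected in duplicate in 1 or more genotypes were tested, a condition 633 members (38.5%) and 82.8% of the other probes met. The remaining 1012 members have no test here. A probe is called when its Benjamini-Hochberg adjusted p from limma, taken over all 35381 tested probes, was under 0.05 and its difference above 2-fold. A member dark in ros1 could enter the test only through a genotype where it was bright, so the counts are also given for the members detected on all 8 arrays.

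In hda6-10, 127 tested members were called higher than in ros1 (20.1% of 633, against 5.01% of all tested probes) and 7 lower (1.11%, against 1.35%). Among the members detected on all 8 arrays, 39 of 407 were higher (9.58%), against 3.36% of all such probes. RefSeq noncoding RNA probes detected on all 8 arrays had nearly the same share, 32 of 341 (9.38%). At probe numbers outside P750000 to P769999 the share was 2.96% of such members and 3.1% of such probes with an accession. The 127 members were 7.16% of all the probes called higher. For 45 of the 127 both genotypes were detected on both arrays, and the median difference of these 45 was 3.08-fold, with log2 differences from 1.06 to 8.24. In 77 of the 127, or 60.6%, neither ros1 array was above background. Among the other probes called higher, that held for 41.6% of EST, cDNA or assembled transcript, 25.2% of RefSeq mRNA and 20.9% of RefSeq noncoding RNA probes. The median log2 difference over the 407 members detected on all 8 arrays was 0.07, and over all such probes 0.02.

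In hda6-9, 113 members were called higher than in ros1 (17.9%, against 4.3% of all tested probes) and 19 lower (3.0%, against 1.37%). Of the 407 members detected on every array, 35 were higher (8.6%), against 2.9% of all such probes and 9.09% of such RefSeq noncoding RNA probes. Called lower among the 407 were 3 (0.737%). On all 8 arrays that share was 1.01% of RefSeq mRNA, 1.17% of RefSeq noncoding RNA and 1.11% of EST, cDNA or assembled transcript probes. In 39 of the 113 members called higher, both genotypes were detected on both arrays, with a median difference of 3.15-fold. The median log2 difference over the 407 members was 0.05, and over all probes detected on all 8 arrays 0.03. Both hda6 comparisons use the same 2 ros1 arrays, so their lists are not independent of each other. Side by side, 108 members were higher in both alleles, which is 85.0% of the hda6-10 list and 95.6% of the hda6-9 list.

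The genotypes that a call had not compared gave the same order for most of these members, which is a description and no independent check. Their arrays had a part in the filter and in the estimate of the spread. A member dark in ros1 and C24 could be tested only through a bright hda6 allele, so part of this order is built in. The shares beside it are over all tested probes, not over the other probes called higher. Of the 127 members called in hda6-10 against ros1, 114 (89.8%) were higher on both hda6-9 arrays than on both C24 arrays, against 33.9% of all tested probes, and the median log2 difference was 2.59. Of the 113 called in hda6-9 against ros1, 109 (96.5%) were higher on both hda6-10 arrays than on both C24 arrays, against 31% of all tested probes, with a median log2 difference of 3.35.

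Slides, each a glass carrying several arrays, held both genotypes of a comparison in 2 cases. Both C24 arrays were on slide 4 without another genotype, so no difference from C24 can be told apart from slide. hda6-9 array 2 was alone on slide 3, so a fit with slide as a block compares hda6-9 with ros1 through slide 2 alone. On slide 1, where both hda6-10 arrays sat beside ros1 array 1, the hda6-10 mean was above 2-fold in all 127 members called higher. On slide 2, hda6-9 array 1 was above 2-fold over ros1 array 2 in 108 of the 113 members. The calls had used these same arrays, so both counts describe the members within a slide and are no independent check. With the slide as a fixed block, 106 members were called higher in hda6-10 and 70 in hda6-9, and under normexp, another way to correct for local background, 64 and 42. Without hda6-9 array 2 and C24 array 2, the counts were 120 and 84, and without hda6-9 array 1, the array lowest in root transcripts, 122 and 96.

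**Figure D2:**
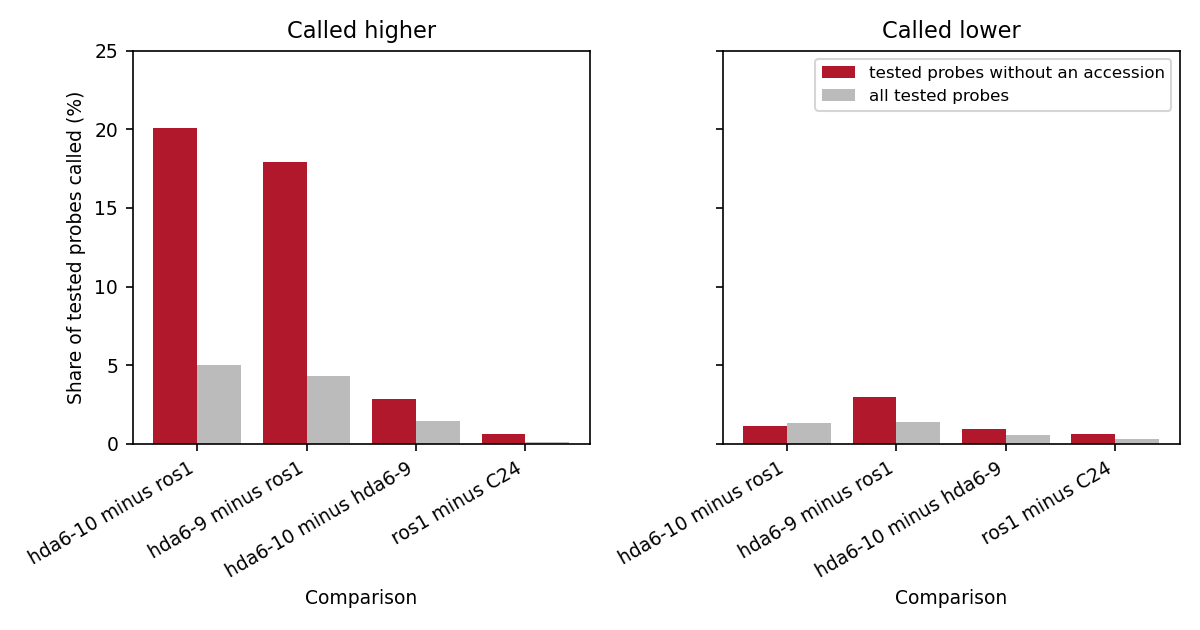
Share of tested probes called (%) in each of the 4 comparisons, higher at left and lower at right, for the 633 tested probes without an accession (red) and all tested probes (grey). The red bars reach 20.1% and 17.9% for the rises in hda6-10 and hda6-9 against ros1, beside grey bars of 5.01% and 4.3%.

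A group of 48 members was detected on both arrays of both hda6 alleles and on no ros1 or C24 array. They make up 2.92% of all members, whereas 225 other probes (0.536%) had that pattern, so the members were 17.6% of all probes that did. All 48 were called higher in both comparisons with ros1, as a probe chosen for this pattern tends to be, and the calls are given as a description. Since ros1 had no measured level, each fold is given as a lower bound. It is taken from the dimmest signal still flagged as detected on each ros1 array, or from the probe's own reading if higher. The bounds hold only under the main background correction. An adjusted p printed beside a bound, here and below, belongs to the fitted difference and not to the bound. The spread behind it comes in part from undetected readings, so it is not the spread of a measured level. The bounds ran from 1.69-fold to 107-fold in hda6-10, with a median of 8.68-fold, and from 1.79-fold to 121-fold in hda6-9, with a median of 9.08-fold. The reverse pattern, detected in both ros1 and C24 and on no hda6 array, was found in 6 members (0.365%) and in 83 other probes (0.198%).

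Probe A_84_P768685 read -1.97 and -2.19 in hda6-10, -2.37 and -2.23 in hda6-9, -10.94 and -11.11 in ros1, and -11.13 and -10.96 in C24. All 4 hda6 arrays were detected and the ros1 and C24 arrays were not. It was at least 99.1-fold higher in hda6-10 than in ros1 (limma adjusted p = 8.8e-06) and at least 85.3-fold higher in hda6-9 (limma adjusted p = 8.2e-06). Under normexp its log2 differences were 3.81 in hda6-10 and 3.50 in hda6-9. Both were still called, but they lay below the log2 bounds of 6.63 and 6.42.

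Probe A_84_P760666 followed almost the same values. It read -2.0 and -1.97 in hda6-10, -2.30 and -2.20 in hda6-9, -10.84 and -10.99 in ros1, and -11.01 and -10.86 in C24, which put it at least 106-fold above ros1 in hda6-10 and at least 88.1-fold in hda6-9 (limma adjusted p = 6.8e-06 and 4.3e-06).

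Probe A_84_P760409 had the largest bound in hda6-10. It read -2.27 and -1.67 in hda6-10, -2.03 and -1.82 in hda6-9, -10.41 and -10.58 in ros1, and -10.61 and -10.49 in C24. The bounds were at least 107-fold in hda6-10 and at least 111-fold in hda6-9 (limma adjusted p = 1.8e-05 in both), and the arrays of the alleles overlapped.

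Probe A_84_P574116 had the largest bound in hda6-9, at least 121-fold over ros1 (limma adjusted p = 6e-05). Its levels were -2.43 and -2.42 in hda6-10, -1.99 and -1.60 in hda6-9, -10.32 and -9.65 in ros1, and -9.66 and -9.14 in C24. The hda6-9 arrays lay above the hda6-10 arrays, and the ros1 and C24 readings are below what the scanner software called measured.

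Probes A_84_P752110, A_84_P767262, A_84_P752042 and A_84_P756082 showed the same arrangement. A_84_P752110 read -2.45 and -2.51 in hda6-10 and -2.39 and -2.05 in hda6-9, and was at least 75.1-fold and at least 90.1-fold over ros1 in the 2 alleles. A_84_P767262 read -2.48 and -2.60 in hda6-10 and -2.40 and -2.01 in hda6-9, with bounds of at least 72.1-fold and at least 91.2-fold. In A_84_P752042 the bounds were at least 66.3-fold in hda6-10 and at least 81.6-fold in hda6-9, and in A_84_P756082 at least 54.7-fold in hda6-9.

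Across the 48 switched-on members, 22 read higher in hda6-10 and 26 in hda6-9, and the difference of hda6-10 minus hda6-9 ran from -1.76 to 1.22 with a median of -0.06 on the log2 scale. A_84_P767480 had the highest of these differences, 1.22 (limma adjusted p = 0.1): it read -2.34 and -2.22 in hda6-10, -3.70 and -3.30 in hda6-9, -10.17 and -10.40 in ros1, and -9.05 and -10.03 in C24. Its alleles did not overlap, but the difference did not pass the test. A_84_P765979 had the lowest, -1.76 (SE 0.23, limma adjusted p = 0.026), with -6.35 and -7.03 in hda6-10 and -4.91 and -4.95 in hda6-9.

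**Figure D3:**
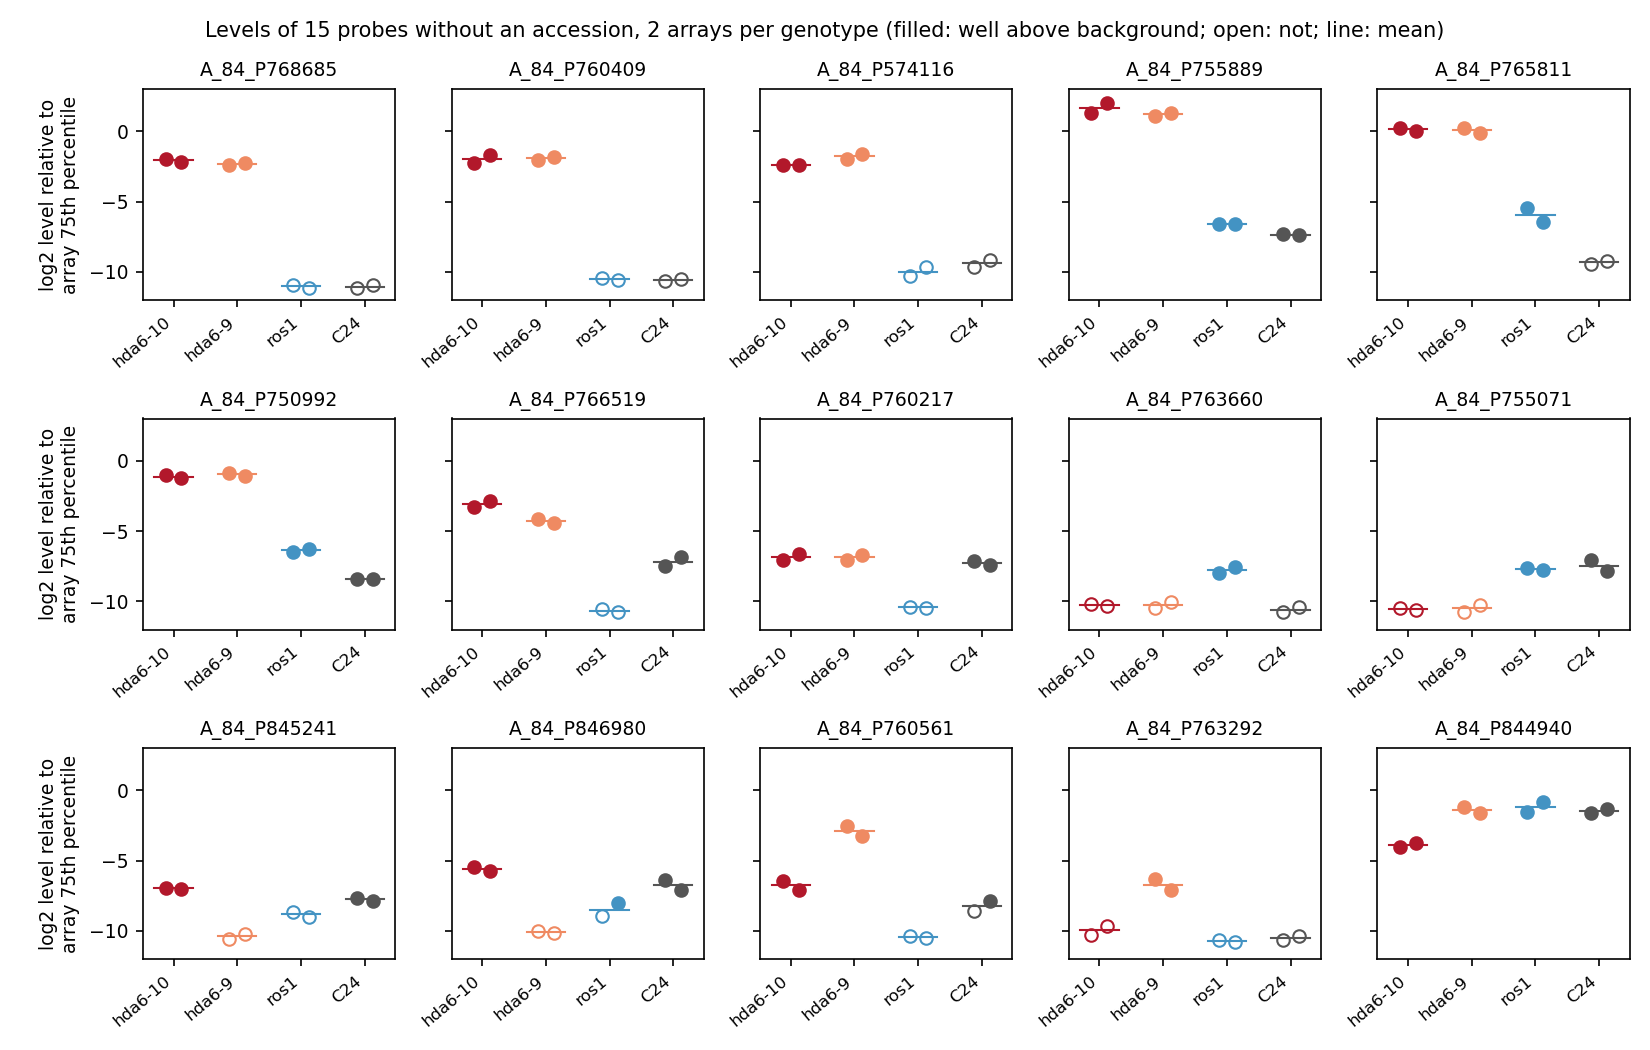
Log2 level relative to the array's 75th percentile for 15 probes without an accession, 1 panel each, by genotype; each point is 1 array, filled where the probe was well above background and open where it was not, and the line is the mean of the 2 arrays. Panels such as A_84_P768685 show filled points near -2 in both hda6 alleles and open points near -11 in ros1 and C24.

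The members detected on every array allow measured folds. Of the 108 members called higher in both alleles, 32 were detected on all 8 arrays, and their folds over ros1 ran from 2.08 to 303 in hda6-10 (median 3.17) and from 2.27 to 221 in hda6-9 (median 3.13). Another 56 of the 108 were detected on no ros1 and no C24 array.

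Probe A_84_P755889 had the largest of these measured folds. It read 1.27 and 2.04 in hda6-10, 1.07 and 1.32 in hda6-9, -6.61 and -6.57 in ros1, and -7.29 and -7.41 in C24, all of them well above background. The hda6 arrays stood above the 75th percentile of their own arrays and the ros1 and C24 arrays far below it. The difference from ros1 was 8.24 on the log2 scale, or 303-fold, in hda6-10 (SE 0.25, limma adjusted p = 3.5e-05) and 7.79, or 221-fold, in hda6-9 (SE 0.25, limma adjusted p = 4.5e-05).

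Probe A_84_P750992 came next, at 37.5-fold in hda6-10 and 42.0-fold in hda6-9 (SE 0.11 log2 units in both, limma adjusted p = 1.6e-05 and 1.5e-05). It read -1.05 and -1.24 in hda6-10, -0.88 and -1.07 in hda6-9, -6.46 and -6.29 in ros1, and -8.42 and -8.44 in C24. The hda6 alleles overlapped, and ros1 lay between them and C24.

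Probe A_84_P159935 was 20.5-fold higher in hda6-10 and 17.2-fold higher in hda6-9 than in ros1, and A_84_P752491 14.4-fold and 18.7-fold. These 2 were picked by fold after their values were seen. A_84_P159935 read -2.04 and -1.70 in hda6-10, -2.28 and -1.97 in hda6-9, -6.33 and -6.13 in ros1, and -6.03 and -5.89 in C24, so that here ros1 and C24 lay close together.

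Falls were few. In hda6-10 against ros1, 3 of the 7 members called lower were detected on both arrays of both genotypes. A_84_P844940 was the largest of them, with -4.03 and -3.77 in hda6-10, -1.17 and -1.61 in hda6-9, -1.54 and -0.84 in ros1, and -1.65 and -1.36 in C24. Only the hda6-10 arrays were low, and the difference from ros1 was -2.71 (SE 0.28, limma adjusted p = 0.0033), against -0.20 in hda6-9 (limma adjusted p = 0.66). A_84_P767658 also differed in hda6-10, with -4.63 and -4.48 there, -3.10 and -3.46 in hda6-9, -2.40 and -3.23 in ros1, and -2.45 and -2.83 in C24 (difference from ros1 -1.74, SE 0.30, limma adjusted p = 0.018). Its hda6-9 value, -0.46, did not pass the test (limma adjusted p = 0.34). A_84_P798708 was closest in size to the 2-fold limit, at -1.04 in hda6-10 (limma adjusted p = 0.032). Its call was lost without any 1 array other than hda6-10 array 2, and that of A_84_P767658 without either hda6-10 array.

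Of the 19 members called lower in hda6-9, neither hda6-9 array of 16 was above background, so the size of most of these falls is only bounded. A bound could be taken for 11 members, and it was above 2-fold in 3 of them. A_84_P755071 was lower in both alleles: it read -10.49 and -10.62 in hda6-10, -10.73 and -10.26 in hda6-9, -7.60 and -7.74 in ros1, and -7.09 and -7.81 in C24. The hda6 arrays were all undetected, and the bound was at least 1.6-fold lower in hda6-10 and at least 1.55-fold lower in hda6-9 (limma adjusted p = 0.0024 and 0.0025). Under normexp its difference turned to 0.30 in hda6-10 and was -0.44 in hda6-9, neither past the test (limma adjusted p = 0.44 and 0.33), and A_84_P760111 turned to 0.17 in hda6-10 (limma adjusted p = 0.67). A_84_P760111 had a larger bound, at least 3.14-fold lower in hda6-9 (limma adjusted p = 0.00078), with -8.17 and -7.87 in hda6-10, -8.93 and -8.88 in hda6-9, -6.83 and -6.46 in ros1, and -6.09 and -6.19 in C24. For A_84_P857435 the bound in hda6-9 was at least 3.32-fold, for A_84_P785200 at least 1.7-fold and for A_84_P761276 at least 1.23-fold (limma adjusted p = 0.031, 0.0059 and 0.043). Normexp left no member called lower in hda6-9. The 19 became 11 without hda6-9 array 1, 10 without hda6-9 array 2, 11 without ros1 array 2 and 7 with the slide as a fixed block. A_84_P761276 lost its call without any single array of hda6-9, ros1 or C24. A_84_P857435 lost its call without any single array of hda6-9, hda6-10 or C24.

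The 2 hda6 alleles were also set against each other, and they shared no slide, so this comparison is also one between slides. Here 18 members were higher in hda6-10 than in hda6-9 (2.84% of 633, against 1.43% of all tested probes) and 6 lower (0.948%, against 0.537%). These counts moved with single arrays: with hda6-10 array 1 left out there were 0 higher and 0 lower, with hda6-9 array 1 or 2 left out 2 higher and 1 lower in either case, with hda6-10 array 2 left out 7 higher and 2 lower, and with the slide as a fixed block 0 higher and 0 lower, so none of the allele differences named below kept its call there or without hda6-10 array 1. At an unadjusted p under 0.05 and above 2-fold, limma gave 50 higher and 11 lower over all arrays.

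Probe A_84_P846980 had the largest allele difference upward. It read -5.49 and -5.73 in hda6-10, -9.99 and -10.17 in hda6-9, -8.95 and -8.01 in ros1, and -6.35 and -7.06 in C24, and was at least 6.45-fold higher in hda6-10 than in hda6-9 (limma adjusted p = 0.015). Against ros1 it was called higher in hda6-10 and lower in hda6-9 (limma adjusted p = 0.007 and 0.043), but both hda6-9 arrays and ros1 array 1 were undetected, so neither difference has a measured size. The C24 arrays lay below hda6-10 and above ros1, although the difference of ros1 minus C24, -1.77, did not pass the test (limma adjusted p = 0.15).

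Probe A_84_P845241 was the other member called in opposite directions. It read -6.92 and -7.04 in hda6-10, -10.56 and -10.23 in hda6-9, -8.65 and -8.99 in ros1, and -7.67 and -7.86 in C24. The hda6-9 and ros1 arrays were all undetected, so its call of hda6-9 below ros1 has no measured size. hda6-10 was at least 2.49-fold above hda6-9 (limma adjusted p = 0.0074).

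Probes A_84_P766661 and A_84_P751142 were on in hda6-10 alone. A_84_P766661 read -7.54 and -7.51 in hda6-10, against -10.59 and -10.17 in hda6-9, and was undetected in the other 3 genotypes. It was at least 1.71-fold above hda6-9 and at least 2.28-fold above ros1 (limma adjusted p = 0.011 and 0.00027). A_84_P751142 read -7.11 and -6.88 in hda6-10, against -9.40 and -9.90 in hda6-9, with bounds of at least 2.47-fold over hda6-9 and at least 3.29-fold over ros1 (limma adjusted p = 0.016 and 0.00086). The other named rises of hda6-10 over hda6-9 were smaller or had no measured size. A_84_P844150 was 3.33-fold higher, A_84_P755036 at least 1.23-fold and A_84_P759810 at least 1.2-fold. A_84_P847833 was 4.82-fold higher by its readings, but both hda6-9 arrays were undetected. Those readings, -8.14 and -7.89, lay above the dimmest detected signal of their arrays (-8.51 and -8.09), so 4.82-fold is no lower bound.

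In the other direction, A_84_P760561 read -6.46 and -7.08 in hda6-10, -2.51 and -3.25 in hda6-9, -10.37 and -10.53 in ros1, and -8.56 and -7.86 in C24. Both alleles were above ros1, at least 3.85-fold in hda6-10 and at least 57.1-fold in hda6-9, and hda6-10 was lower than hda6-9 by -3.89 (SE 0.36, limma adjusted p = 0.017). A_84_P763292 was detected in hda6-9 alone, with -10.26 and -9.67 in hda6-10, -6.30 and -7.10 in hda6-9, -10.61 and -10.76 in ros1, and -10.67 and -10.36 in C24. It was at least 3.13-fold lower in hda6-10 than in hda6-9 (limma adjusted p = 0.018). A_84_P760089, above the 75th percentile on every array, read 1.70 and 1.20 in hda6-10, 2.92 and 2.73 in hda6-9, 1.5 and 1.94 in ros1, and 1.89 and 2.23 in C24, and A_84_P844440 was lower in hda6-10 than in hda6-9 by -1.28 (limma adjusted p = 0.042 for A_84_P760089 and 0.025 for A_84_P844440).

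ros1 against C24 gave few calls: 4 members were higher (0.632%, against 0.0904% of all tested probes) and 4 lower (0.632%, against 0.339%). These genotypes shared no slide, so genotype and slide cannot be told apart here. At an unadjusted p under 0.05 and above 2-fold, limma gave 9 higher and 37 lower. Without ros1 array 1 the adjusted counts were 5 higher and 0 lower, without ros1 array 2 they were 9 and 7, and without any other single array 2 or 3 higher and 3 or 4 lower; without hda6-9 array 2 and C24 array 2 together, and under normexp, none was called in either direction. Among the members detected on all 8 arrays, the median log2 difference was -0.17, with 28.7% above 0, whereas the median of all such probes was -0.01, with 48.6% above 0. The median over the 633 tested members, -0.20, was -0.07 without ros1 array 1 and -0.28 without ros1 array 2, and 0.06 after normexp.

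Of the 4 rises, A_84_P765811, A_84_P166343 and A_84_P750992 stood still higher in both hda6 alleles. A_84_P765811 read 0.26 and 0.05 in hda6-10, 0.23 and -0.12 in hda6-9, -5.46 and -6.43 in ros1, and -9.43 and -9.21 in C24. The genotypes fell into 3 levels with no overlap: ros1 was at least 6.85-fold above C24 (limma adjusted p = 0.023), and hda6-10 and hda6-9 were 68.9-fold and 64.1-fold above ros1 (limma adjusted p = 0.00028 and 0.00029). A_84_P166343 read 0.83 and 0.82 in hda6-10, 1.07 and 1.25 in hda6-9, -5.74 and -6.25 in ros1, and -8.48 and -9.10 in C24, with ros1 at least 5.9-fold above C24 and the alleles 113-fold and 142-fold above ros1. A_84_P750992, described above, was 4.16-fold higher in ros1 than in C24 (limma adjusted p = 0.0036).

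The fourth, A_84_P763660, was detected in ros1 only. It read -10.19 and -10.34 in hda6-10, -10.45 and -10.01 in hda6-9, -7.98 and -7.52 in ros1, and -10.76 and -10.40 in C24. The ros1 arrays lay at least 1.96-fold above C24 (limma adjusted p = 0.013), the difference of hda6-10 minus ros1 was 0.35 under normexp, and the members' only-in-ros1 pattern was found in 1 member and 21 other probes.

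All 4 falls in ros1 were in members undetected on both ros1 arrays, detected in C24 and detected again in both hda6 alleles, and 4 members in all (0.243%) and 62 other probes (0.148%) had that pattern. A_84_P766519 read -3.29 and -2.88 in hda6-10, -4.14 and -4.43 in hda6-9, -10.55 and -10.75 in ros1, and -7.47 and -6.86 in C24. It was at least 2.92-fold lower in ros1 than in C24, and at least 49.5-fold higher in hda6-10 and at least 21.5-fold higher in hda6-9 than in ros1 (limma adjusted p = 0.0083, 4.6e-05 and 8.3e-05). The alleles therefore stood above C24 as well.

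A_84_P760217 differed from that arrangement, in that the hda6 arrays lay close to C24. It read -7.06 and -6.62 in hda6-10, -7.03 and -6.68 in hda6-9, -10.37 and -10.47 in ros1, and -7.16 and -7.44 in C24, and ros1 was at least 2.66-fold below C24 (limma adjusted p = 0.0052). A_84_P758871 read -3.09 and -3.04 in hda6-10, -3.23 and -2.88 in hda6-9, -10.06 and -10.50 in ros1, and -8.53 and -8.51 in C24. It was at least 50.1-fold and at least 50.6-fold higher than ros1 in hda6-10 and hda6-9, and at least 1.15-fold lower in ros1 than in C24. A_84_P766632 was at least 2.99-fold lower in ros1 than in C24 and at least 8-fold and at least 3.51-fold higher in hda6-10 and hda6-9 than in ros1.

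**Figure D4:**
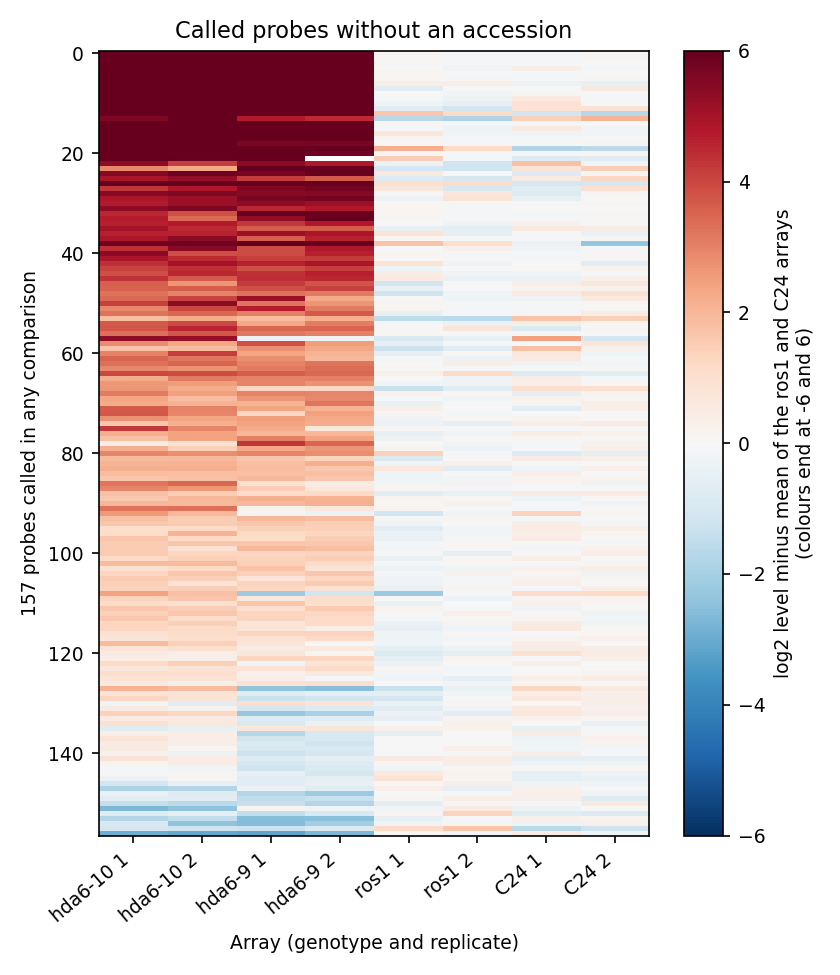
The 157 probes without an accession that were called in any of the 4 comparisons (rows, ordered by the sum of their hda6-10 and hda6-9 differences from ros1) on the 8 arrays (columns). Colour is the log2 level minus the mean of the 4 ros1 and C24 arrays, so a pale cell is a level near that mean. An outlier spot left out is also white, so colour alone does not mark it. Most rows are red in the 4 hda6 columns, as 108 of the 157 were called higher in both alleles.

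Most tested members were called in no comparison, 476 of 633 in all. The 5 members with the brightest spots, a rank that also depends on each probe's unknown sequence, were A_84_P752319, A_84_P863330, A_84_P863188, A_84_P752487 and A_84_P846056, and none of them was called in any comparison. A_84_P752319 read 5.81 and 5.56 in hda6-10, 5.81 and 5.84 in hda6-9, 5.52 and 5.57 in ros1, and 5.22 and 5.67 in C24. A_84_P863330 read 5.38 and 5.45 in hda6-10, 5.30 and 5.53 in hda6-9, 5.26 and 5.42 in ros1, and 5.28 and 5.24 in C24. Their genotypes lay close together.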

How the data were processed

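RNA from 12-day-old Arabidopsis seedlings (150 ng, Cy3) was hybridised to 8 one-colour Agilent arrays, 2 per genotype. Per the file headers, Feature Extraction 10.7.1.1 wrote background-subtracted intensity values and flags for 43803 non-control spots per array, and these intensity columns were deposited. The authors' combined table of deposited intensity values matched the background-subtracted signal of each array to a relative difference of at most 0.003. Per the study's methods, the authors' own steps also included spatial detrending, a shift to the 75th percentile, a median-based normalization between arrays and a selection in GeneSpring by p-value and fold, with no test named. Those methods describe biological replicates, more per sample than the 2 arrays per genotype analysed here.

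From the deposited intensity values, log2(processed signal) minus each array's 75th percentile was computed, outlier spots were left out and spots of a probe averaged. Probes flagged well above background in both replicates of any genotype were tested (35381 of 43603; 1 probe had no hda6-9 value) with limma 3.58.1 in R 4.3.3, 4 genotypes in 1 fit, Benjamini-Hochberg adjusted p under 0.05 and above 2-fold; the script was tested on simulated data. 2 arrays per genotype limit the precision. "At least N-fold" sets the brighter genotype's mean against, per array of the dimmer one, the higher of its own level and that of the dimmest detected probe. An undetected probe can read above the dimmest detected one, so such a value is not always a true lower limit. No probe sequence is printed, since the files used here give none. The members, gene lists and naming rules were chosen with earlier results of these data known. Named members are, per comparison, the 8 largest rises and 6 largest falls among called members that were detected on both arrays of the brighter genotype and did not overlap, the 5 brightest, and the 6 largest bounds among switched-on members. The normexp alternative used the median spot signal, since the mean signal was not among the columns used.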

Additional observations from a re-analysis of the deposited data

Results flagged for a closer look

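The hda6 alleles differed from each other in the direct test of hda6-10 minus hda6-9 in 18 members called higher in hda6-10 and 6 called lower (limma, adjusted p under 0.05 and above 2-fold). With 2 arrays per genotype, single arrays could not be tested as outliers. The named members among them had fitted log2 differences of hda6-10 minus hda6-9 of 4.47 for A_84_P846980, 3.42 for A_84_P845241, 2.85 for A_84_P766661, 2.65 for A_84_P751142, 2.27 for A_84_P847833, 1.73 for A_84_P844150, 1.72 for A_84_P755036 and 1.66 for A_84_P759810 on the side of hda6-10. On the side of hda6-9 they were -3.89 for A_84_P760561, -3.26 for A_84_P763292, -2.51 for A_84_P844940, -1.76 for A_84_P765979, -1.38 for A_84_P760089 and -1.28 for A_84_P844440. All of these except A_84_P844150, A_84_P760561, A_84_P844940, A_84_P765979, A_84_P760089 and A_84_P844440 had 1 allele below detection on both arrays, so their fitted differences are no measured sizes. A_84_P845241 and A_84_P766661 lost their call without hda6-10 array 1, under normexp and with the slide as a fixed block, and kept it in the other alternatives run. These 2 were the most stable of the named allele differences, with 3 of 20 alternatives lost each. The others lost more, from 6 of 20 for A_84_P846980 to 15 of 20 for A_84_P755036 and 15 of 21 for A_84_P844150.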

How the results depend on the processing

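Counts below are members called, higher then lower, in the order hda6-10 minus ros1 (127 and 7), hda6-9 minus ros1 (113 and 19), hda6-10 minus hda6-9 (18 and 6) and ros1 minus C24 (4 and 4). Background correction by normexp (offset 50, on the median signal) gave 64 and 2, 42 and 0, 10 and 3, and 0 and 0, with medians over the tested members of 0.48, -0.06, 0.49 and 0.06 against 0.15, 0.11, 0.02 and -0.20; under it the median of all tested probes in hda6-10 minus hda6-9 was 0.09 against -0.02, a shift over 0.1, and it turned the sign of A_84_P755071 (0.30), A_84_P763660 (0.35) and A_84_P760111 (0.17) in hda6-10 minus ros1, of A_84_P763292 (0.16) in hda6-10 minus hda6-9 and of A_84_P758871 (0.07) in ros1 minus C24. Quantile normalization gave 17 lower in hda6-10 minus ros1 and medians of -0.11 there and -0.12 in hda6-10 minus hda6-9, where it made the split 13 higher and 9 lower. The combined deposited matrix gave 9 lower in ros1 minus C24. Without the filter on dim probes the medians were 0.35, 0.38 and, for ros1 minus C24, -0.01. Only probes detected on all 8 arrays gave 40 and 3, 35 and 3, 6 and 3, and 1 and 0, as fewer probes were tested. Fits of only the 4 arrays compared gave 7 and 2 between the alleles and 1 and 1 for ros1 minus C24. The slide as a fixed block gave 70 and 7 in hda6-9 minus ros1 and 0 and 0 between the alleles, whose median became 0.26, and cannot be fitted for ros1 minus C24; as a random block it changed no count (correlation 0.011). An unadjusted p gave 15 lower in hda6-10 minus ros1, 50 and 11 between the alleles, and 9 and 37 in ros1 minus C24. Above 2-fold alone gave 24 lower, 31 lower, 59 and 22, and 12 and 54, and adjusted p alone 15 lower and 31 lower against ros1. Without hda6-9 array 2 and C24 array 2, chosen after seeing the data, counts were 9 lower in hda6-9 minus ros1, 3 and 2 between the alleles, and 0 and 0 in ros1 minus C24. Leaving out 1 array at a time gave 99 to 122 higher and 6 to 8 lower in hda6-10, 93 to 109 and 10 to 15 in hda6-9, 0 to 16 and 0 to 6 between the alleles, and 2 to 9 and 0 to 7 in ros1 minus C24, with medians of 0.08 to 0.31, 0 to 0.24, 0 to 0.07 and -0.28 to -0.07. The replicate block gave 118 and 6, 103 and 12, 2 and 0, and 4 and 2. Between genotypes, the deviations of same-numbered arrays correlated at -0.37 to 0.06, and what the arrays of a number share was not tested. With the numbers of ros1 and C24 crossed in the replicate block, also chosen after seeing the data, counts were 121 and 9, 111 and 20, 15 and 6, and 3 and 3. Taking a positive and significant signal as detection gave 803 members on both arrays of hda6-10, 747 of hda6-9, 737 of ros1 and 807 of C24, against 547, 494, 478 and 531, so that C24 then had the most. For 50 named differences, 771 of 1001 alternative values kept the direction and the call, 225 kept the direction only, and 5 turned; 17 differences kept their call in every alternative in which they could be fitted. The causes were not tested. Signal near background limits most members: 851 have no level on any array.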

Other observations

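The probe names of the members clustered by number. Names from P750000 to P769999 belonged to 1102 members (67.0%), a range chosen after counts by name had been seen. Of the tested members in it, 100 of 351 were called higher in hda6-10 than in ros1 (28.5%), and 94 in hda6-9 (26.8%), against 27 of 282 (9.57%) and 19 (6.74%) of the members with other numbers. Among members detected on all 8 arrays the shares were 16.2% in the range and 2.96% outside it for hda6-10. Probes with an accession detected on all 8 arrays had 6.89% in the range and 3.1% outside it. For hda6-9 the shares outside the range were 1.48% of such members and 2.63% of such probes with an accession. Outside the range, the members detected on all 8 arrays were therefore not called higher more often than other probes. Probes with an accession in the same range were called higher in hda6-10 in 11.1% of those tested, against 4.38% at other numbers. Of the 48 members on in both hda6 alleles and off in ros1 and C24, 39 had names in the range.

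A further 13 members (0.79%) were detected on both C24 arrays and on no other array, as were 87 other probes (0.207%), and 8 members (0.486%) on both hda6-10 arrays alone, as were 50 other probes (0.119%). Members were detected on 1 of the 2 arrays of at least 1 genotype in 288 cases (17.5%), against 8.53% of other probes. Printed in 5 copies were 16 members, of which 12 were detected on no array and 3 on all 8.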
